A study of Homo sapiens with 52 samples.

Results

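TCP-seq libraries of HEK293T cells without eIF2D were set directly against TCP-seq libraries of HEK293T cells without MCTS1. HEK293T is a transformed human embryonic kidney line, and TCP-seq (translation complex profile sequencing) reads the mRNA fragments that ribosomal complexes protect. The 8 libraries were chosen by their labels alone, as the TCP-seq libraries of the eIF2D knockout (KO) and of the MCTS1 KO that carry no added construct, and they are 8 of the 42 libraries with a count column. The series labels 52 samples in all, which also cover RNA-seq, Ribo-seq and small-subunit selective TCP-seq. The eIF2D KO had 4 libraries, 2 from each of the KO lines #1 and #2. The MCTS1 KO had 4 libraries too, 2 from each of its own lines #1 and #2. 4 wild type TCP-seq libraries were used to say which KO departed from wild type and to judge how libraries of different library numbers differ. They also entered the shared fit, with its filter, scaling and estimate of spread, and the conditions for naming a transcript. The labels name no other genotype, drug or time for these libraries, and the sources used here do not say how the lines were made or whether each is a single clone. The question is whether loss of either factor leaves the same ribosomal complexes on the same mRNAs.

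eIF2D is a single protein that carries, in 1 chain, domains resembling those of MCTS1 and DENR, which work as a pair. Both eIF2D and the MCTS1-DENR complex are known to help remove the small ribosomal subunit and its deacylated tRNA from mRNA after termination, and MCTS1-DENR is also known for reinitiation after short upstream reading frames. Loss of either may therefore leave small subunits on mRNA or change how often they start again, and recycling of the small subunit by eIF2D is the subject that the series' title gives.

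The counts were deposited per transcript and the identifiers could be paired with no gene here, so transcripts are named by identifier, without gene names, roles or sequences. Neither the loss of EIF2D and MCTS1 nor markers of the cell line could be checked for the same reason. Library totals lay between 2236210 and 5053637 counts in eIF2D KO, between 1609303 and 3853825 in MCTS1 KO and between 1900382 and 3084003 in wild type. The library names carry numbers, and the labels do not say whether these mark a run or batch. The eIF2D KO libraries are numbered 31 to 34 and follow wild type replicates 1 and 2 (29 and 30), whereas the MCTS1 KO libraries are numbered 37 to 40 and follow wild type replicates 3 and 4 (35 and 36). The KO compared and the number series thus cannot be told apart in the direct comparison.

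Libraries of 1 line were alike, and the KOs were only slightly less alike than lines of a single KO. After thinning to 1609303 counts per library, 2 libraries of the same line differed by 1.19 to 1.66 times counting noise (chi-square over its degrees of freedom, 4 pairs). The 16 pairs of an eIF2D KO and an MCTS1 KO library differed by 2.16 to 3.75 times, with a median of 2.75. Libraries of the 2 eIF2D KO lines differed by 2.23 to 3.11 times with a median of 2.60, and those of the 2 MCTS1 KO lines by 2.08 to 2.93 times with a median of 2.49. Wild type replicates 1-2 differed from replicates 3-4 by 2.12 to 2.96 times, with a median of 2.27. The range between the KOs thus overlapped the ranges between lines of 1 KO and between the wild type pairs.

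Over 34190 transcripts with a mean of at least 5 CPM (counts scaled to a common library total) in the 8 KO libraries, the first principal component held 26.2% of the variance and the second 16.5%. On the second, the eIF2D KO libraries stood at 16.5 and 21.0 (line #1) and 39.0 and 50.7 (line #2), against -11.0 and -22.7 (line #1) and -26.6 and -18.8 (line #2) for MCTS1 KO. Wild type replicates 1 and 2 stood at 9.40 and 11.4 and replicates 3 and 4 at -29.2 and -39.6. This axis parted the 2 number series, wild type included, and not only the KOs. On the first component eIF2D KO lay between -36.7 and 21.7, MCTS1 KO at 22.8, 14.9, 63.4 and 49.2, and wild type at -10.5, -28.5, -44.0 and -46.9. All 4 MCTS1 KO libraries lay above all 4 wild type libraries there, while line #1 of eIF2D KO lay among the wild type libraries and line #2 above them.

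**Figure D1:**
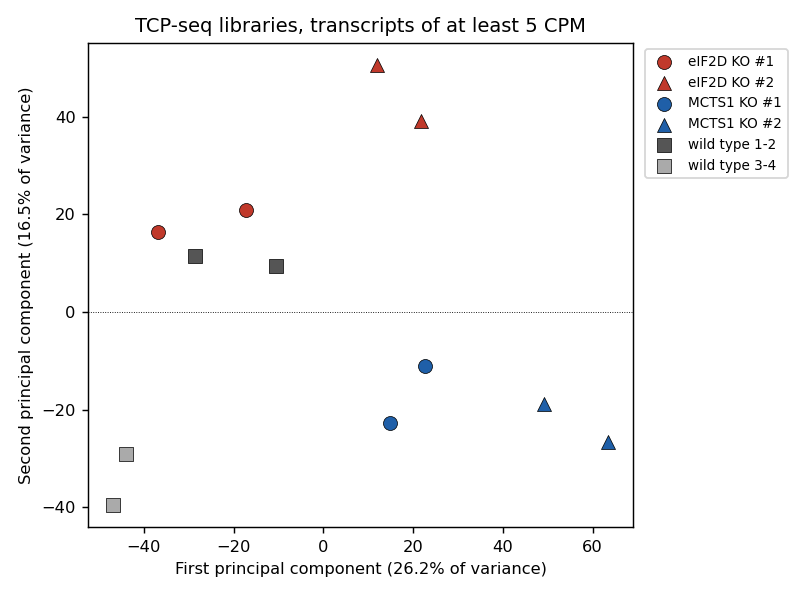
Principal components of 12 TCP-seq libraries over 34190 transcripts; each point is 1 library, x and y are scores without unit, colour gives the genotype and shape the line. The dotted line at 0 on the y axis parts the libraries numbered 29 to 34 above from those numbered 35 to 40 below, and MCTS1 KO lies to the right of wild type.

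In the direct comparison 6633 of 50991 tested transcripts differed, which is 13% (edgeR quasi-likelihood test, Benjamini-Hochberg adjusted p under 0.05). Of these, 2826 (5.54% of those tested) were higher in eIF2D KO than in MCTS1 KO, with a median log2 difference of 0.64, and 3807 (7.47%) were lower, with a median of -0.72. At least 2-fold differences made up 467 of the higher and 781 of the lower transcripts. The p-values measure the spread between libraries of 1 line, and the labels do not say whether these came from separate cultures. When the libraries of each line were summed and the line was the unit, 385 transcripts passed, 86 higher and 299 lower in eIF2D KO. With library totals alone as scaling the calls were 3467 higher and 2811 lower, so 55.2% of calls were higher in eIF2D KO, against 42.6% with TMM factors. Without the filter on low counts 2374 were higher and 2130 lower. Which direction held more calls thus changed with the processing. DESeq2 called 1642, 644 higher and 998 lower. Without 1 library of MCTS1 KO line #1 the count was 3853 (without replicate 1) or 4364 (without replicate 2).

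How many transcripts were called depended on the level. Between 2 and 5 CPM 4.96% of 16609 transcripts were called, with a median size of 1.17 on the log2 scale among those called. At 50 CPM and above 34.1% of 3109 transcripts were called, with a median size of 0.36. The same rise with level was seen between the wild type pairs, where 0.409% and 20.2% of these transcripts were called.

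The wild type libraries differed less often by the same test. Wild type replicates 1-2 against replicates 3-4 gave 1319 calls, which is 2.59%, with 961 higher and 358 lower in replicates 1-2. That comparison has 2 libraries a side, so the comparisons of equal size are those of single lines. eIF2D KO line #1 gave 2286 calls (4.48%) against MCTS1 KO line #1 and 10213 (20%) against line #2. eIF2D KO line #2 gave 2239 calls (4.39%) against MCTS1 KO line #1 and 6696 (13.1%) against line #2. Within a genotype, eIF2D KO line #1 against line #2 gave 4198 calls (8.23%) and MCTS1 KO line #1 against line #2 gave 1756 (3.44%). Of the 4 pairs of an eIF2D KO and an MCTS1 KO line, the 2 with MCTS1 KO line #1 gave fewer calls than the lines of eIF2D KO gave between themselves. The libraries of MCTS1 KO line #1 were the shallowest of those pairs, with totals of 1969167 and 1609303, and the part of depth in these counts was not tested.

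**Figure D2:**
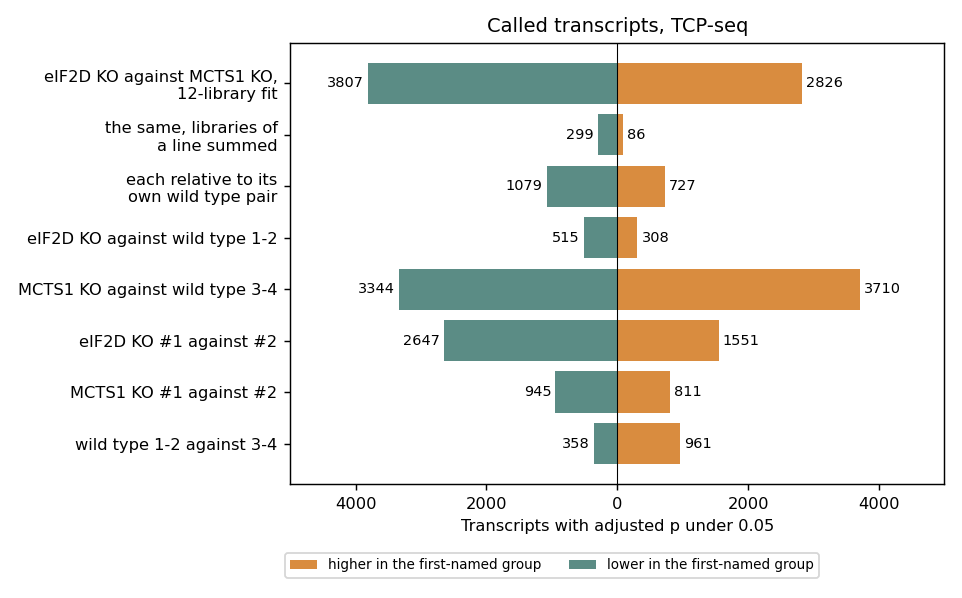
Number of transcripts with adjusted p under 0.05 in each TCP-seq comparison (x axis, counts to the right are higher and to the left lower in the group named first). The direct comparison gave 2826 and 3807 calls, 86 and 299 when the libraries of a line were summed, and the wild type pairs gave 961 and 358.

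Direct calls mostly kept their sign from line to line. Of the 2826 transcripts higher in eIF2D KO, 2501 had that sign in all 4 pairs of lines, and of the 3807 lower ones 3434 did. In 1677 of the higher and 1693 of the lower transcripts the 4 eIF2D KO and 4 MCTS1 KO libraries did not overlap in CPM. Over all tested transcripts 5232, or 10.3%, did not overlap. The pairs of lines enter the direct contrast, so this is a description of the calls.

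Lines #1 of the 2 KOs and lines #2 of the 2 KOs give contrasts that share no library. Of the 779 transcripts higher in eIF2D KO line #1 than in MCTS1 KO line #1, 75.5% were also higher in line #2 of eIF2D KO than in line #2 of MCTS1 KO, with a median of 0.34 there. Of the 1507 lower ones 69.8% had the same sign, with a median of -0.22. In that second pair 222 of the 779 (28.5%) and 479 of the 1507 (31.8%) were called with the same sign, and 24 and 151 with the opposite sign. Over all 50991 tested transcripts the second pair gave 3124 higher and 3572 lower calls. The lines paired the other way gave less. Of the 4600 transcripts higher in eIF2D KO line #1 than in MCTS1 KO line #2, 56.1% were higher in eIF2D KO line #2 than in MCTS1 KO line #1, and 62.9% of the 5613 lower ones were lower. Across transcripts, which are not independent, the 2 differences had a Spearman rho of 0.31 for the first pairing and 0.11 for the second, both over 34190 transcripts of at least 5 CPM. Both contrasts set the same 2 number series against each other, so a difference between the series would also be shared.

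**Figure D3:**
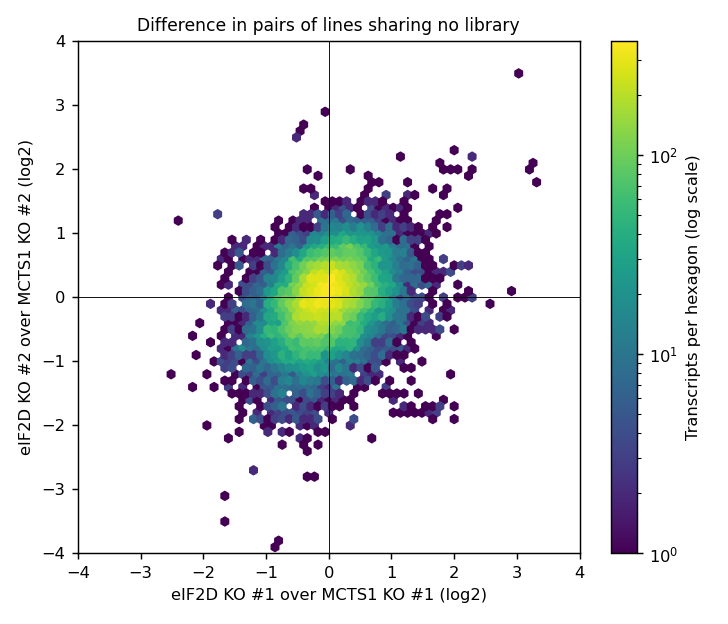
Log2 difference of eIF2D KO over MCTS1 KO for lines #1 (x axis) and lines #2 (y axis), 34190 transcripts of at least 5 CPM, colour giving transcripts per hexagon on a log scale; 4 transcripts lie outside the axes. The cloud is tilted upward to the right (rho 0.31) and broad.

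The wild type pairs give the only view of the number series without a KO. Over the same 34190 transcripts the direct difference and the difference of wild type replicates 1-2 from replicates 3-4, which share no library, had a Spearman rho of 0.07 (0.05 over all 50991). Of the direct calls, 352 were also called between the wild type pairs with the same sign, 278 higher and 74 lower, and 57 with the opposite sign. Thus 9.84% of the transcripts higher in eIF2D KO were also called higher in the wild type libraries of its own number series, and 1.94% of those lower were also lower. Over all tested transcripts these shares were 1.88% and 0.702%.

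The largest of these shared differences were at low counts. ENST00000620748.1 had 2.84, 1.37, 1.19 and 2.24 CPM in eIF2D KO and 0, 0.621, 0.304 and 0 CPM in MCTS1 KO, with 6.49 and 5.72 CPM in wild type replicates 1 and 2 and 0 and 0.526 in replicates 3 and 4. The KO groups did not overlap, and neither did the wild type pairs, in the same order. ENST00000493031.3 had 7.29, 6.28, 3.76 and 3.13 CPM in eIF2D KO and 2.03, 0.621, 0 and 0.519 CPM in MCTS1 KO, against 7.78 and 7.80 CPM in wild type replicates 1 and 2 and 0.815 and 1.58 in replicates 3 and 4. All eIF2D KO libraries were above all MCTS1 KO libraries, and wild type 1-2 was above wild type 3-4. Every eIF2D KO library stood below both libraries of wild type 1-2, line #2 by more than line #1. The direct log2 difference of ENST00000493031.3 was 2.80 ± 0.48 (SE, edgeR adjusted p = 2.2e-06), and its difference relative to wild type was 0.10 ± 0.56 (edgeR adjusted p = 0.95). Among transcripts lower in eIF2D KO, ENST00000624509.1 had 5.27, 3.00, 1.39 and 0.894 CPM in eIF2D KO and 6.60, 6.84, 8.50 and 3.63 CPM in MCTS1 KO. Wild type replicates 1 and 2 had 4.54 and 4.16 CPM and replicates 3 and 4 had 26.1 and 12.1 CPM. The KO groups overlapped in 1 library each, and the gap between the wild type pairs was wider than that between the KOs. ENST00000557034.1 was called lower in both too, with direct and wild type log2 differences of -1.08 (edgeR adjusted p = 0.018) and -1.93 (edgeR adjusted p = 0.019). Without replicate 1 of MCTS1 KO line #1 its direct difference was -0.10 and the call was lost (edgeR adjusted p = 0.95).

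Setting each KO against the wild type pair of its own number series takes that pair's difference out. In this comparison 1806 transcripts differed between the KOs, 3.54% of those tested, 727 higher and 1079 lower in eIF2D KO relative to MCTS1 KO. 1029 transcripts, 2.02%, were called with the same sign here and in the direct comparison, 438 higher and 591 lower. 2389 of the 2826 direct higher calls and 3617 of the 3807 lower calls kept their sign, called or not, and 20 of the higher ones were called with the opposite sign. The contrast shares the 8 KO libraries with the direct one. It rests on 2 wild type libraries per series: without wild type replicate 1, 2, 3 or 4 it gave 494, 1074, 487 or 1085 calls, and without replicate 1 of MCTS1 KO line #1 it gave 1075. With the libraries of each line and each wild type pair summed it gave 7 calls, all higher, and DESeq2 gave 247.

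By the test, more transcripts differed from wild type in MCTS1 KO than in eIF2D KO, and how many more depended on the wild type pair. Each KO was the mean of its 2 lines, in which opposite changes of the lines cancel. The eIF2D KO lines differed from each other in 4198 transcripts (8.23%) and the MCTS1 KO lines in 1756 (3.44%). Single lines were not set against wild type. Against wild type replicates 1-2, 823 transcripts differed in eIF2D KO (1.61%), 308 higher and 515 lower. Against wild type replicates 3-4, 7054 differed in MCTS1 KO (13.8%), 3710 higher and 3344 lower. With 1 wild type pair for both KOs, replicates 1-2 gave 823 calls for eIF2D KO and 3425 (6.72%) for MCTS1 KO, and replicates 3-4 gave 5294 (10.4%) and 7054. Against all 4 wild type libraries as 1 group the counts were 2218 for eIF2D KO and 5308 for MCTS1 KO. The eIF2D KO libraries summed to 13420881 counts and the MCTS1 KO libraries to 10726773. The part of depth in the number of calls was not tested. The likeness of whole libraries did not give that order. At equal depth the eIF2D KO libraries differed from wild type 1-2 by a median of 2.25 times counting noise and the MCTS1 KO libraries by 2.20 times. From wild type 3-4 they differed by 3.94 times (2.29 to 6.28) in eIF2D KO and 3.36 times (2.37 to 5.31) in MCTS1 KO. The MCTS1 KO change was the larger in 64.3% of the 50991 transcripts with each KO set against its own wild type pair, in 58.7% with both against replicates 1-2 and in 55.4% with both against replicates 3-4. These shares were not taken at equal depth. The part of depth in them, and in the same shares of the sets below, was not tested.

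Among transcripts that differed directly, the median displacement from wild type was larger in MCTS1 KO. The 2826 transcripts higher in eIF2D KO had a median log2 change of 0.17 in eIF2D KO and -0.45 in MCTS1 KO, each against its own wild type pair. In eIF2D KO 115 of them were called higher and 24 lower than wild type, and in MCTS1 KO 112 were called higher and 901 lower. The 3807 transcripts lower in eIF2D KO had a median of -0.15 in eIF2D KO and 0.51 in MCTS1 KO. In eIF2D KO 22 of them were called higher and 183 lower, and in MCTS1 KO 1267 were called higher and 80 lower. The MCTS1 KO change was the larger in 71.7% of the first set and 71.3% of the second, beside the 64.3% over all tested transcripts. With wild type 1-2 for both KOs the shares were 69.9% and 71.3%, beside 58.7% over all. With wild type 3-4 for both they were 57.2% and 64.9%, beside 55.4%, and the medians were 0.24 in eIF2D KO and -0.45 in MCTS1 KO for the first set and -0.21 and 0.51 for the second. These values use the KO libraries that chose the sets and describe where the difference lay.

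539 transcripts met all the conditions set for naming a transcript, 218 higher and 321 lower in eIF2D KO. They had at least 5 CPM over the KO libraries, were called in the direct and the relative comparison with 1 sign, had that sign in all 4 pairs of lines, and their KO libraries did not overlap. Their direct log2 differences ran from 0.25 to 3.24 among the higher and from -0.26 to -2.95 among the lower, with medians of 0.75 and -0.84. Over all tested transcripts the wild type pairs had the sign of the direct difference in 51.3%. Here they had it in 5.05% of the higher and 9.97% of the lower. The median difference of wild type 1-2 from 3-4 was -0.33 and 0.25. The relative comparison, a condition here, takes that difference out, which favours such transcripts. The median relative differences were 1.07 and -1.07. The 2 largest in each direction are described here.

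ENST00000227507.2 had the largest difference upward. It had 13.4 and 7.64 CPM in eIF2D KO line #1 and 27.1 and 26.4 in line #2. In MCTS1 KO it had 2.03 and 0 CPM in line #1 and 3.64 and 1.30 in line #2. Wild type replicates 1 to 4 had 7.46, 7.28, 15.5 and 12.6 CPM. Every MCTS1 KO library was below every wild type library, and every eIF2D KO library was above both libraries of wild type 1-2. Beside wild type 3-4, eIF2D KO line #2 was above both libraries, and line #1 had 13.4 CPM between them and 7.64 below. The means were 18.6 ± 9.67 CPM in eIF2D KO and 1.74 ± 1.52 in MCTS1 KO (SD, n = 4 each). The direct log2 difference was 3.24 ± 0.30 (SE, edgeR adjusted p = 2e-17) and that relative to wild type 4.20 ± 0.46 (edgeR adjusted p = 4.8e-12). Against its own wild type pair it rose by 1.08 in eIF2D KO (edgeR adjusted p = 0.013) and fell by 3.12 in MCTS1 KO (edgeR adjusted p = 1.7e-11). Wild type 1-2 was itself lower than wild type 3-4, with a log2 difference of -0.95 (edgeR adjusted p = 0.087). The rise in eIF2D KO is thus a rise from the lower wild type pair. Without replicate 1 of MCTS1 KO line #1, that line was left with its library at 0 and the fitted direct difference was 5.64, a value set by the prior count. The mRNA was lower in MCTS1 KO cells as well, in other libraries. RNA-seq gave 1.15 and 1.11 CPM in MCTS1 KO line #1 and 1.81 and 1.37 in line #2, against 5.49 and 4.90 CPM in wild type, a log2 change of -1.95 ± 0.10 (SE, edgeR adjusted p = 2e-26).

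ENST00000249750.9 had 12.2 and 11.7 CPM in eIF2D KO line #1 and 5.14 and 6.71 in line #2, and 1.02, 1.24, 0.911 and 1.56 CPM in the MCTS1 KO libraries. Wild type replicates 1 to 4 had 3.89, 3.64, 5.71 and 8.42 CPM. The MCTS1 KO libraries, with 2 to 6 reads each, were below all others, and the eIF2D KO libraries overlapped wild type. The direct log2 difference was 2.70 ± 0.37 (SE, edgeR adjusted p = 1.4e-09) and the relative one 3.57 ± 0.59 (edgeR adjusted p = 1e-05). Its change against wild type passed the test in MCTS1 KO (-2.53, edgeR adjusted p = 1.9e-05) and not in eIF2D KO (1.04, edgeR adjusted p = 0.12). Its mRNA was lower in 1 MCTS1 KO line only: RNA-seq gave 1.99 and 2.03 CPM in line #1 and 7.72 and 8.39 in line #2, against 8.03 and 7.85 CPM in wild type. The TCP-seq level in line #2 was thus as low as in line #1 while its RNA-seq level was at that of wild type.

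The 2 largest differences downward are close to 1 measurement. ENST00000451311.7 and ENST00000380636.1 had the same count in 10 of the 12 TCP-seq libraries and differed by 1 read in the other 2, so their tests are not independent. ENST00000451311.7 had 9.72 and 11.5 CPM in eIF2D KO line #1 and 0.594 and 0 in line #2. In MCTS1 KO it had 21.3, 18.0, 14.0 and 13.2 CPM, and in wild type 5.19, 7.28, 7.34 and 7.89 CPM. MCTS1 KO was above all other libraries, line #1 of eIF2D KO was above wild type and line #2 below it. The direct log2 difference of -2.95 ± 0.29 (SE, edgeR adjusted p = 1.1e-16) was made of -0.999 and -0.372 for eIF2D KO line #1 against MCTS1 KO lines #1 and #2 and of -5.52 and -4.89 for line #2. Line #2 of eIF2D KO had 3 and 0 counts, so the size of -5.52 and -4.89 is uncertain. With the line as the unit the direct difference was -1.66 and the call was lost (edgeR adjusted p = 0.82). ENST00000380636.1 had a direct difference of -2.93 ± 0.29 and lost its call the same way.

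**Figure D4:**
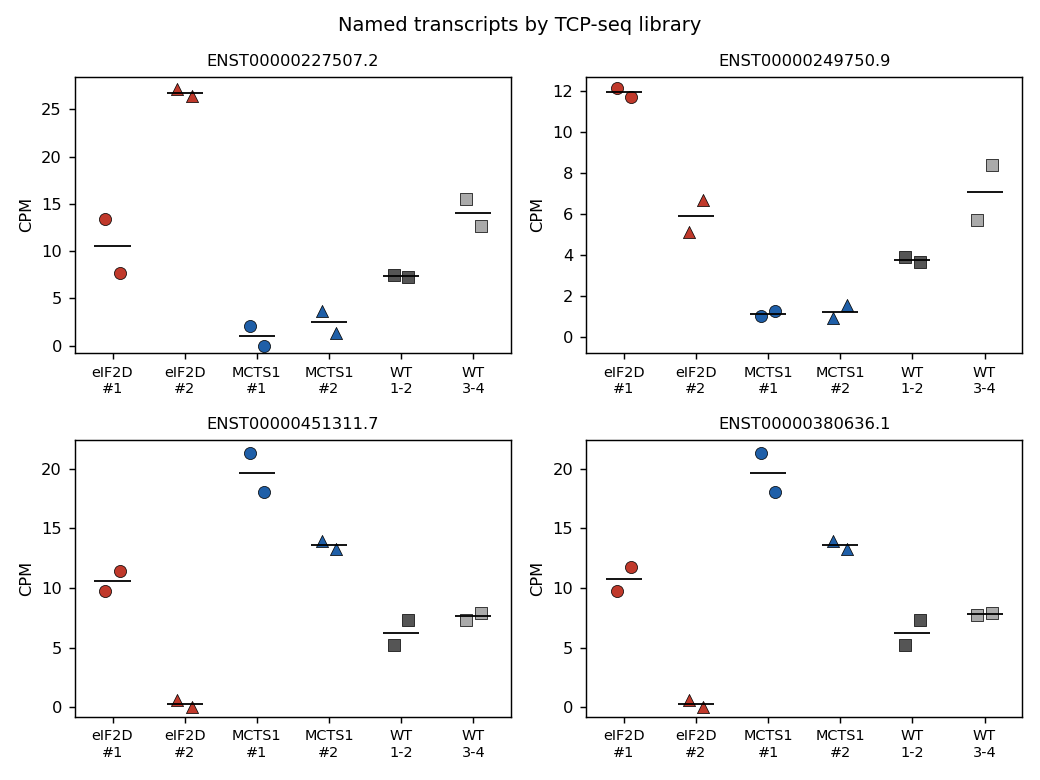
CPM of the 4 named transcripts (1 panel each) in every TCP-seq library, by genotype and line; points are libraries and short lines are means of 2. ENST00000227507.2 and ENST00000249750.9 are low in all 4 MCTS1 KO libraries, and ENST00000451311.7 and ENST00000380636.1 are near 0 in eIF2D KO line #2 alone.

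RNA-seq and Ribo-seq of the MCTS1 KO lines come from libraries that took no part in choosing the transcripts. The series labels no RNA-seq or Ribo-seq of an eIF2D KO, so TCP-seq levels in eIF2D KO could not be set against its mRNA levels. Among the transcripts tested in TCP-seq, 16.7% were higher and 21.4% lower in MCTS1 KO than in wild type by RNA-seq (49881 tested, edgeR adjusted p under 0.05). Of the transcripts higher in eIF2D KO than in MCTS1 KO by TCP-seq, 252 (9.46%) were higher and 1204 (45.2%) lower in MCTS1 KO by RNA-seq, of 2664 tested. Of those lower in eIF2D KO, 1445 (38.7%) were higher and 355 (9.5%) lower in MCTS1 KO, of 3737 tested. Calls in the direction of the TCP-seq difference thus outnumbered those against it in both sets, and the rest of each set was not called. The median RNA-seq change was small, -0.11 for the first set and 0.11 for the second on the log2 scale.

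Both MCTS1 KO lines showed it. In line #1 53.2% of the first set were lower and 43.7% of the second set higher by RNA-seq, and in line #2 23.9% and 27.3%. Over all tested transcripts 32.2% were lower and 24% higher in line #1, and 11.5% and 12.3% in line #2. Ribo-seq gave the same order. Over all tested transcripts 4.53% were higher and 4.38% lower in MCTS1 KO, whereas 1.84% of the first set were higher and 14.4% lower, and 18.3% of the second set were higher and 2.18% lower.

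The 2 MCTS1 KO lines also differed from each other in RNA-seq and TCP-seq. The difference between MCTS1 KO lines #1 and #2 in RNA-seq had a Spearman rho of 0.20 with the difference between the same lines in TCP-seq (49881 transcripts). With the difference between the eIF2D KO lines it had a rho of 0.03 and with that between the wild type pairs -0.02. The 811 transcripts higher in line #1 than line #2 of MCTS1 KO by TCP-seq had a median RNA-seq difference of 0.25, and the 945 lower ones -0.31. The cells are shared between these assays and the libraries are not.

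DENR, the partner of MCTS1, was depleted with 2 siRNAs in other HEK293T cells, and these libraries share neither lines nor wild type controls with those above. By RNA-seq 13.7% of the transcripts tested in TCP-seq were higher and 20.1% lower after siDENR than after siControl. Of the transcripts higher in eIF2D KO than in MCTS1 KO, 9.57% were higher and 31.7% lower after siDENR. Of those lower in eIF2D KO, 17% were higher and 16.9% lower. By Ribo-seq 7.12% of all tested transcripts were higher and 9.42% lower after siDENR, against 10.1% and 15.9% of the first set and 8.95% and 10.7% of the second. By RNA-seq the first set was called lower after siDENR at 31.7% beside 20.1% of all tested transcripts, and the second set was called about as often in either direction.

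When transcripts were ordered by their RNA-seq change in MCTS1 KO, the TCP-seq difference followed the order. Among 33081 transcripts with at least 5 CPM in TCP-seq and a wild type RNA-seq mean of log2(CPM + 0.5) of at least 0, the quartile whose mRNA fell most in MCTS1 KO had a median direct difference of 0.12. The next quartiles had 0.03, -0.03 and -0.18. Higher calls numbered 1028 in the first quartile and 229 in the last, and lower calls 366 and 1596. Across transcripts the Spearman rho was -0.29, -0.24 for lines #1 alone and -0.22 for lines #2 alone, against 0.01 for the difference between the wild type pairs.

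The order lay in the MCTS1 KO libraries. In each library the median level of the quartile whose mRNA rose most, minus that of the quartile whose mRNA fell most, was taken relative to the mean of the 12 libraries. It was -0.13, -0.06, -0.06 and -0.05 in eIF2D KO and 0.19, 0.17, 0.22 and 0.22 in MCTS1 KO on the log2 scale. It was -0.10, -0.11, -0.15 and -0.13 in wild type replicates 1 to 4. The MCTS1 KO libraries lay above all others, and eIF2D KO overlapped wild type. The means were -0.07 ± 0.04 in eIF2D KO and 0.20 ± 0.03 in MCTS1 KO (SD, n = 4 each), which differed with p = 0.0286 by a two-sided exact permutation test. That is the smallest p that 4 against 4 libraries allow, and it was 0.0572 after Benjamini-Hochberg adjustment over the 4 properties examined. With the line as the unit no such test can go below 0.333.

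A second order was that of the mRNA level in wild type cells. From the lowest to the highest quartile of wild type RNA-seq level the median direct difference was -0.15, -0.02, 0.03 and 0.05, with a rho of 0.19. Within single libraries the most abundant quartile exceeded the least abundant one by 0.06, 0.00, -0.06 and 0.05 in eIF2D KO and -0.07, -0.08, -0.33 and -0.25 in MCTS1 KO, against 0.07, 0.20, 0.12 and 0.10 in wild type. All MCTS1 KO libraries were below all others, line #2 by more than line #1, and the eIF2D KO libraries lay between MCTS1 KO and wild type without overlapping either. The gaps were narrow: -0.06 for the lowest eIF2D KO library beside -0.07 for the highest MCTS1 KO library, and 0.06 beside 0.07 for eIF2D KO and wild type. The difference between the KOs was 0.20, with the same exact permutation p of 0.0286 (0.0572 adjusted). The level of the least abundant mRNAs in TCP-seq was thus higher in MCTS1 KO, relative to the most abundant, than in eIF2D KO or wild type.

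**Figure D5:**
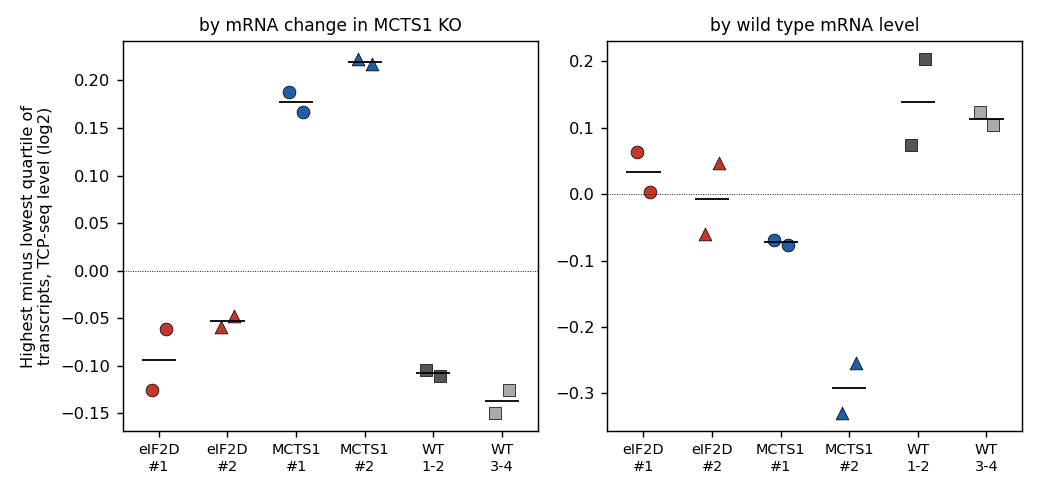
Median log2 TCP-seq level of the highest minus the lowest quartile of 33081 transcripts, per library, for quartiles by the RNA-seq change in MCTS1 KO (left) and by the wild type RNA-seq level (right); points are libraries, short lines means of 2, and the dotted line is 0. MCTS1 KO lies between 0.17 and 0.22 on the left, above all other libraries, and below all others on the right.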

How the data were processed

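The authors deposited raw counts for 226882 transcript identifiers with version numbers. The submitters' processing notes list STAR, featureCounts, Subread and cutadapt and the builds GRCh38.p13 and hg38. Versions, strand setting and the treatment of reads overlapping several transcripts are not stated there. The 50991 transcripts tested had 48968 distinct count profiles, so some transcripts repeat the counts of others and are not independent tests. None of the identifiers matched the gene tables available (0 matches), so checks of the targeted genes, cell line markers, gene lists, sequence stretches and the mitochondrial share were not run. 10 labelled samples, TCP-seq with an empty vector or added eIF2D, were not analysed here.

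The 12 TCP-seq libraries were fitted in 1 model of 6 groups (each KO line, and wild type replicates 1-2 and 3-4) with edgeR 4.0.16 in R 4.3.3: TMM factors, library totals as deposited, filterByExpr with a minimum count of 10, robust quasi-likelihood test, Benjamini-Hochberg adjusted p under 0.05. A KO was the mean of its 2 lines. Log2 differences are eIF2D KO minus MCTS1 KO, and their standard errors come from dividing them by the root of F. CPM are counts scaled to a common library total, without TMM factors. Each other assay had its own fit. Quartile values used log2(CPM + 0.5), with CPM scaled by the TMM factors. The direct test was checked on simulated counts with known changes. These held no difference between lines of a KO, so that check cannot judge calls where the lines differ.

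The comparison, the quartile properties and the transcript sets were chosen with earlier results of these data known. Named transcripts are the 2 largest in each direction that met the conditions given with them, and the 2 largest in each direction that were called alike in the direct comparison and between the wild type pairs. Longer lists of genes had been planned, and counts per gene had been assumed. Alternatives were RLE factors, totals alone, no filter, DESeq2 1.42.0, summed lines, the KO libraries alone with and without a replicate block, each library left out, and others chosen after seeing the data: library sizes summed after the filter, 1 transcript per count profile, a 5 CPM minimum, other wild type pairs for the KOs, and, for the quartiles, a pseudocount of 1, a 10 CPM minimum and each KO library left out. Libraries with the same replicate number did not deviate together (correlations between -0.04 and 0.03 over 15 pairs), so the numbers were not used as pairs. Depth sets the precision of low counts. Figures were drawn with matplotlib 3.10.9, and exact permutation tests with scipy 1.17.1.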

Additional observations from a re-analysis of the deposited data

Results flagged for a closer look

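In 4 named transcripts the change from wild type differed between the KOs by the test of that difference itself (edgeR, adjusted over 50991 transcripts). The log2 change in eIF2D KO minus that in MCTS1 KO was 4.20 for ENST00000227507.2, 3.57 for ENST00000249750.9, -2.60 for ENST00000451311.7 and -2.55 for ENST00000380636.1. Each value is the direct difference less that of wild type 1-2 from 3-4. The wild type differences were -0.95, -0.87, -0.35 and -0.39 in that order. None of them passed the test (edgeR adjusted p = 0.087, 0.35, 0.76 and 0.71). ENST00000451311.7 and ENST00000380636.1 share nearly all their counts, and their eIF2D KO change lay in line #2. These transcripts had been chosen with this test as one of the conditions.

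1 of 42 groups of 4 libraries had a library standing apart by Dixon's ratio at its 95% critical value of 0.829. For ENST00000557034.1 the second library of MCTS1 KO line #1 had 1.24 CPM (2 counts), against 8.13, 7.28 and 7.01 CPM in the other MCTS1 KO libraries, with a ratio of 0.837. Chance flags about 1 in 20 groups.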

How the results depend on the processing

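The direct comparison gave 385 calls with the libraries of each line summed and 1642 with DESeq2, which gave an adjusted p to 29242 transcripts, against 6633. With a library left out it gave between 3853 and 6698. The relative comparison gave 868 calls without a filter, 247 with DESeq2 (8481 transcripts with an adjusted p) and 7 with summed lines, against 1806, and between 487 and 2359 with a library left out. Summing leaves fewer samples and makes the spread between lines the error, and the cause of these changes was not tested. eIF2D KO gave 2218 calls against all 4 wild type libraries, 4384 against both pairs weighted equally and 5294 against wild type 3-4, beside 823 against wild type 1-2. MCTS1 KO gave 3425 against wild type 1-2, beside 7054 against wild type 3-4. The 18 other alternatives for the direct and 13 for the relative count, and the rest for the KO and wild type comparisons, stayed within 1.5 times. The higher share of direct calls was 42.6%, and 45% with RLE, 55.2% with totals alone, 52.7% without a filter and 48.9% with library sizes summed again after the filter. The median log2 difference moved by at most 0.06 in these. The replicate block changed little: 6421 calls with it and 6426 without it among the 8 KO libraries, and 1870 in the relative comparison, where the first and second library of each group were taken as blocks.

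Of the named transcripts, ENST00000227507.2, ENST00000249750.9 and ENST00000493031.3 kept direction and call wherever an adjusted p was given. ENST00000451311.7, ENST00000380636.1 and ENST00000624509.1 lost the call with summed lines (adjusted p = 0.82, 0.82 and 0.052 by edgeR), and ENST00000557034.1 and ENST00000620748.1 under 5 alternatives each. ENST00000557034.1 had -0.10 without replicate 1 of MCTS1 KO line #1. ENST00000451311.7 had -4.55 without replicate 1 of eIF2D KO line #2, which left that line with its library at 0 counts. That value is set by the prior count. The difference between the KOs by quartile lay between -0.28 and -0.25 for the mRNA change and between 0.15 and 0.23 for the mRNA level. Gene list and sequence stretch alternatives were not run.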

Other observations

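Transcripts present in 1 KO and without a count in the other were few. 2 transcripts had 0 counts in all 4 MCTS1 KO libraries and at least 20 in eIF2D KO, at most 28, which puts the larger at least 7.46-fold higher in eIF2D KO (floor of 3 counts over the 4 libraries). None had 0 counts in all 4 eIF2D KO libraries and 20 or more in MCTS1 KO, where the highest sum was 16. Both transcripts at 0 in MCTS1 KO had counts in wild type.

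Orders by 2 other properties did not part the KOs. By ribosome footprints per mRNA in wild type cells, the highest minus the lowest quartile averaged 0.06 ± 0.16 in eIF2D KO and 0.10 ± 0.11 in MCTS1 KO (SD, n = 4 each, exact permutation p = 0.714), with -0.05 and -0.29 for the wild type pairs. By the ratio of small-subunit complexes selected through eIF2D to those selected through MCTS1 or DENR, it averaged 0.00 ± 0.24 in eIF2D KO and -0.11 ± 0.12 in MCTS1 KO (SD, n = 4 each, exact permutation p = 0.457). The eIF2D KO lines went apart in that order: 0.22 and 0.18 in line #1 and -0.24 and -0.17 in line #2. In MCTS1 KO it was -0.05 and 0.02 in line #1 and -0.25 and -0.15 in line #2, and -0.01 and 0.00 in wild type replicates 1 and 2 but 0.24 and 0.30 in replicates 3 and 4. Within both KOs line #2 was below line #1, and wild type 1-2 was below wild type 3-4.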
